A study of Mus musculus with 4 samples.

Results

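Purinergic signalling genes were followed through 4 populations of macrophages sorted from pressure-overloaded mouse hearts. The 10 genes were chosen by name as a functional family: the ATP-gated channels P2rx4 and P2rx7, the nucleotide receptors P2ry6, P2ry12, P2ry13 and P2ry14, the surface enzymes Entpd1 (CD39) and Nt5e (CD73), and the adenosine receptors Adora2a and Adora2b. Of these 10, 7 had a probe set with a gene symbol, out of 19505 genes with one. P2ry14, Adora2a and Adora2b were not analysed here.

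Extracellular ATP is released by stressed or dying cells and acts as an alarm signal on macrophages. P2X receptors are cation channels opened by ATP, whereas P2Y receptors are G protein-coupled receptors for ADP, UDP and related nucleotides. CD39 removes phosphates from ATP and ADP to leave AMP, and CD73 turns AMP into adenosine, which acts on adenosine receptors and generally restrains inflammatory macrophages.

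The mice were wild-type C57BL/6N, 15 to 16 weeks old, and all had transverse aortic constriction (TAC), which narrows the aorta and loads the left ventricle; every library shares this surgery. Cells from 6 mixed hearts were sorted into Ccrl2, Trem2, CD163 and CD74 macrophages, here called by the library titles, and each population gave 1 library on 1 Clariom S array. The source names place sampling 8 weeks after TAC, the growth protocol 1 week after it. For the library titled CD74 the source name reads CD9 instead. Where a title reads CD163, the growth protocol lists Lyve1. With 1 library per population there was no replicate error and no test, the number of arrays limits the precision, and mice cannot be told apart because hearts were pooled.

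Levels are deposited log2 values. They are compared between libraries for the same gene only, because different probe sets differ in brightness. Each library has a background ceiling, the 95th percentile of 1498 chemosensory receptor and keratin-associated protein genes, which was 5.67 in Ccrl2, 5.51 in Trem2, 6.28 in CD163 and 6.53 in CD74. A gene was called higher in 1 library than in another when it lay above its ceiling there and at least 1 log2 unit (2-fold) above the other value, with a dim value raised to its own ceiling. Folds from such dim values are lower bounds, written as "at least".

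The labelled identity did not hold equally. Of 7 macrophage markers with a probe set, 7 lay above the ceiling in Ccrl2, Trem2 and CD163 and 5 in CD74, and Csf1r, the receptor of the macrophage growth factor, had 19.59, 19.19, 18.60 and 9.40 in that order. All 7 T and NK cell markers with a probe set were above the ceiling in CD74, against 0 in Ccrl2, 4 in Trem2 and 1 in CD163. All 5 neutrophil markers were called higher in Trem2 than in each other library. Genes above the ceiling numbered 7454 in Ccrl2, 8144 in Trem2, 4984 in CD163 and 3621 in CD74. In these bulk libraries, fewer cells of a type and less RNA per cell cannot be told apart.

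Promoter windows of 5 measured genes are given first. The reference used held no window for P2ry6, which was therefore not searched, and the Nt5e window is not printed. The family holds 2 pairs of chromosomal neighbours whose levels can be set side by side. P2ry13 and P2ry12 are adjacent protein-coding genes on chromosome 3, with start sites 52103 bases apart, and P2rx7 and P2rx4 are adjacent on chromosome 5, with start sites 63617 bases apart. Entpd1, on chromosome 19, is shown at the downstream of its 2 listed start sites. Sequences are from RefSeq (GRCm38.p6), 250 bases before to 50 after the start, on the strand of the gene, with motif matches in capitals.

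P2ry12, chr3:59262936-59263235, minus strand: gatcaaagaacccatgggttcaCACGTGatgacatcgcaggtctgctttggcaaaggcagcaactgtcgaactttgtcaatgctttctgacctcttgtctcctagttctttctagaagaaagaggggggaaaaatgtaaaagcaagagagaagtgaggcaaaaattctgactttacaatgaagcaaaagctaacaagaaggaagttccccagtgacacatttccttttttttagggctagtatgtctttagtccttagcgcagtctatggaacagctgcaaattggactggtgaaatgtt

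P2ry13, chr3:59210833-59211132, minus strand: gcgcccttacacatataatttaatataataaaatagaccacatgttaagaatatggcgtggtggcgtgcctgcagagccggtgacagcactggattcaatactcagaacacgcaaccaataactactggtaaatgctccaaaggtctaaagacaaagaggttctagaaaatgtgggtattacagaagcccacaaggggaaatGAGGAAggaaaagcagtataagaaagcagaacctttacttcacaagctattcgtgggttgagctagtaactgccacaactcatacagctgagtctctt

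P2rx7, chr5:122643677-122643976, plus strand: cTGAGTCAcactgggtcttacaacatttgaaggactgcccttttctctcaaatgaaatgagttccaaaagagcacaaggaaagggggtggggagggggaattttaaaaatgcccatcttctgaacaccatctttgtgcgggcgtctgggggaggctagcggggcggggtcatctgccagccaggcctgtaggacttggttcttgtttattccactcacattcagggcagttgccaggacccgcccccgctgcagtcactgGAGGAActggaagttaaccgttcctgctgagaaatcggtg

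P2rx4, chr5:122707294-122707593, plus strand: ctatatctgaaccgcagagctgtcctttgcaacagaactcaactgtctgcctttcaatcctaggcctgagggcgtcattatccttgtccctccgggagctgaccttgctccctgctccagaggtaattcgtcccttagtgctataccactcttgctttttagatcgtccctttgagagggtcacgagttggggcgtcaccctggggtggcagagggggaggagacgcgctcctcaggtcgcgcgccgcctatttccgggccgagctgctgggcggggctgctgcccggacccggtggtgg

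Entpd1, chr19:40659520-40659819, plus strand: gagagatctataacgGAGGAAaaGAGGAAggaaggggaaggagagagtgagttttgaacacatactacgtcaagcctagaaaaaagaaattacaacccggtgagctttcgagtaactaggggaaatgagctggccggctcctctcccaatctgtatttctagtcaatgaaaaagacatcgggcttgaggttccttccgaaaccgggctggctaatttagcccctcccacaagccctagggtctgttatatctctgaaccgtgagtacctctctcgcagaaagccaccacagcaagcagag

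The motifs searched on both strands were GAGGAA, the core bound by the macrophage factor PU.1, TGANTCA for AP-1, TGACGTCA for cAMP response elements and ACGTG for the hypoxia response. They occurred in 28.3%, 7.81%, 1.79% and 19.6% of all 32851 promoter windows. P2ry13 held 1 GAGGAA, starting 48 bases before the start site, and the Entpd1 window held 2, starting 235 and 227 bases before it. P2rx7 held 1 GAGGAA 10 bases after the start and TGAGTCA 249 bases before it. P2ry12 held CACGTG, in which ACGTG reads on both strands, 228 bases before the start and no GAGGAA. P2rx4 held none of the 4. The Entpd1 window at the upstream start and the Nt5e window also held none, and the second P2rx7 window held GAGGAA on the opposite strand, 5 bases after its start.

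Of the ectonucleotidases, Entpd1 gave the widest contrast of the family and Nt5e was not above background. Entpd1 had 15.36 in Ccrl2, 14.75 in Trem2, 13.16 in CD163 and 8.06 in CD74. It was above the ceiling in all 4 libraries, with the Ccrl2 and Trem2 values within 2-fold of each other. It was 158-fold higher in Ccrl2 than in CD74, 103-fold in Trem2 and 34.3-fold in CD163, which is 7.30, 6.69 and 5.10 log2 units. After quantile normalization these were 5.14, 4.84 and 4.40 log2 units. Ccrl2 exceeded CD163 by 4.59-fold and Trem2 exceeded it by 3.01-fold. The order of the 4 libraries was the same after quantile normalization and after median centring, but the excess over CD163 fell to 0.73 log2 units in Ccrl2 and 0.43 in Trem2 after quantile normalization, both under 2-fold.

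Nt5e had 4.22 in Ccrl2, 4.29 in Trem2, 5.66 in CD163 and 4.50 in CD74. CD39 transcript was well above background where CD73 transcript was not distinguishable from background on these arrays. Nt5e is also known on lymphocytes, and in the CD74 library, where all 7 T and NK cell markers were measured, it had 4.50 against a ceiling of 6.53. Entpd1 is also made by endothelial cells and B cells. The endothelial marker Cdh5 had 10.86 in Ccrl2, 11.31 in Trem2, 7.47 in CD163 and 6.36 in CD74. The 4 endothelial markers had a summed level of 11.44, 11.81, 8.54 and 8.19, and the 4 B cell markers 10.19, 12.36, 7.30 and 10.95, in the same order. Their part in the Entpd1 values was not tested.

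**Figure D1:**
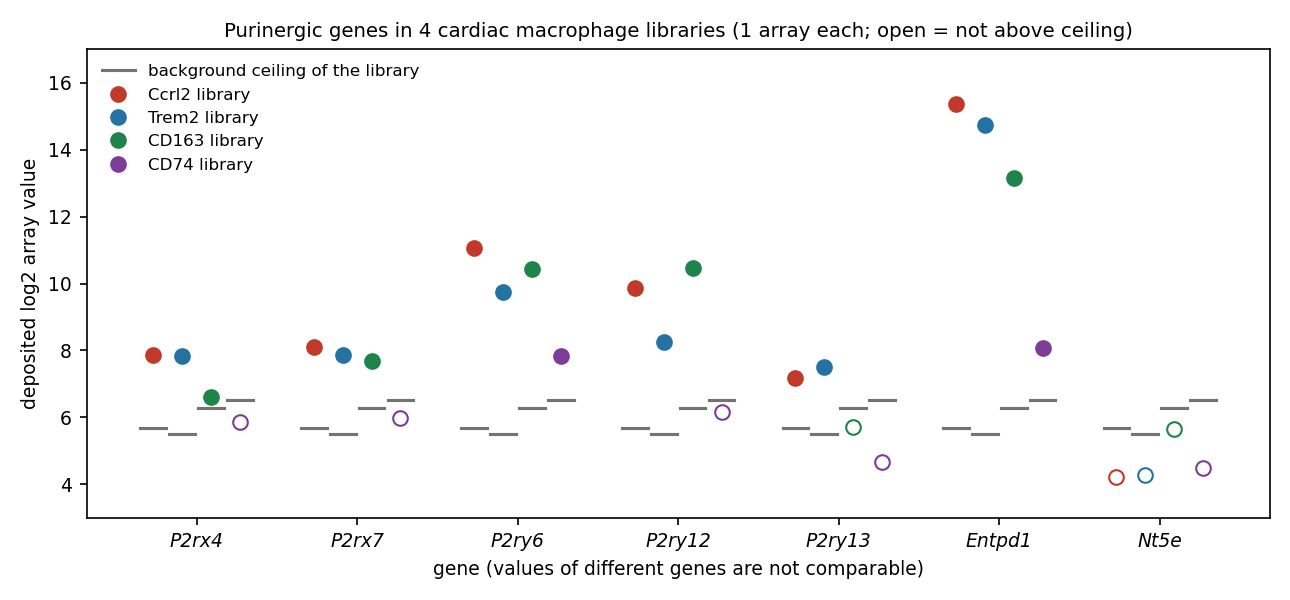
Deposited log2 value (vertical axis) of the 7 genes with a probe set (horizontal axis) in each library, 1 point per array; grey bars are the libraries' background ceilings and open points are not above them. Entpd1 spans 8.06 to 15.36, P2ry12 is highest in CD163 at 10.47, and every Nt5e point is open.

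P2ry12 and P2ry13 both encode receptors for ADP, coupled to inhibitory G proteins; P2ry12 is the target of common antiplatelet drugs and a widely used marker of microglia. P2ry12 had 10.47 in CD163, 9.87 in Ccrl2, 8.26 in Trem2 and 6.16, under the ceiling, in CD74. CD163 exceeded Trem2 by 4.63-fold and CD74 by at least 15.3-fold, and Ccrl2 exceeded Trem2 by 3.05-fold. The difference between Trem2 and CD163 (Trem2 minus CD163) went from -2.21 log2 units to -3.26 after quantile normalization and -3.44 after median centring. CD163 and Ccrl2 were within 2-fold of each other as deposited (0.60 log2 units), and 1.78 apart after quantile normalization and 1.69 after median centring, each time with CD163 higher. P2ry12 was the one family member whose highest value lay in CD163 under the 3 scalings and above a ceiling.

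Markers of other cells moved with P2ry12 to different degrees. All 5 resident macrophage markers were called higher in CD163 than in Ccrl2 and in Trem2, with median differences of -4.06 (Ccrl2 minus CD163) and -3.14 (Trem2 minus CD163). Folr2, a folate receptor of resident macrophages, had 14.94 in CD163, 9.93 in Ccrl2, 10.43 in Trem2 and 6.49 in CD74. Of the platelet markers, Gp9 and Ppbp were above no ceiling, and Itga2b had 6.07 in CD163, under the ceiling, and 6.58 in Ccrl2. Pf4, which macrophages also express, had 10.36 in CD163, 9.86 in Ccrl2, 10.58 in Trem2 and 5.71 in CD74.

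P2ry13 was highest in another library than its chromosomal neighbour. It had 7.51 in Trem2 and 7.19 in Ccrl2, above the ceilings and within 2-fold of each other, and 5.71 in CD163 and 4.66 in CD74, under them. Trem2 exceeded CD163 by at least 2.35-fold and CD74 by at least 1.97-fold. Ccrl2 exceeded CD163 by at least 1.88-fold and CD74 by at least 1.58-fold. Trem2 kept the highest value under both other scalings, with Ccrl2 minus Trem2 at -0.15 (quantile) and -0.18 (centring). Its difference from CD163 was then no longer called. The summed level of neutrophil markers was 17.05 in Trem2, 9.75 in Ccrl2, 8.54 in CD163 and 9.65 in CD74. Their part in the P2ry13 values was not tested.

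P2ry6 encodes a receptor for UDP that is known to promote phagocytosis. It had 11.06 in Ccrl2, 10.44 in CD163, 9.75 in Trem2 and 7.85 in CD74, above the ceiling in all 4. Ccrl2 was 2.48-fold above Trem2 and 9.25-fold above CD74, while CD163 was within 2-fold of both Ccrl2 and Trem2. CD163 was 6.02-fold and Trem2 3.73-fold above CD74. Ccrl2 minus CD74, 3.21 log2 units as deposited, was 1.40 after quantile normalization and 1.85 after median centring. The leading library depended on scaling: CD163 was highest after quantile normalization, at 10.91 against 10.26 in Ccrl2, and after median centring, at 10.95 against 10.48. Trem2 lay only 0.11 log2 units above CD74 after quantile normalization and 0.40 after median centring, so that call was lost.

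The ATP-gated channels differed less. P2rx7, the low-affinity ATP channel upstream of the NLRP3 inflammasome, had 8.10 in Ccrl2, 7.86 in Trem2, 7.70 in CD163 and 5.98, under the ceiling, in CD74. The first 3 lay within 2-fold of each other, and they exceeded CD74 by at least 2.97-fold, 2.51-fold and 2.25-fold. CD163 became the highest of them under both other scalings, with 8.14 against 7.62 in Ccrl2 after quantile normalization. The calls of Ccrl2 and Trem2 over CD74 were lost under both, and that of CD163 under median centring. P2rx4, a channel found largely in endolysosomes, had 7.86 in Ccrl2, 7.83 in Trem2, 6.61 in CD163 and 5.87, under the ceiling, in CD74. Ccrl2 and Trem2 were 2.38-fold and 2.33-fold above CD163 as deposited, but only 0.57 and 0.46 log2 units above it after quantile normalization. After median centring the difference was 0.17 for Ccrl2 and -0.005 for Trem2.

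**Figure D2:**
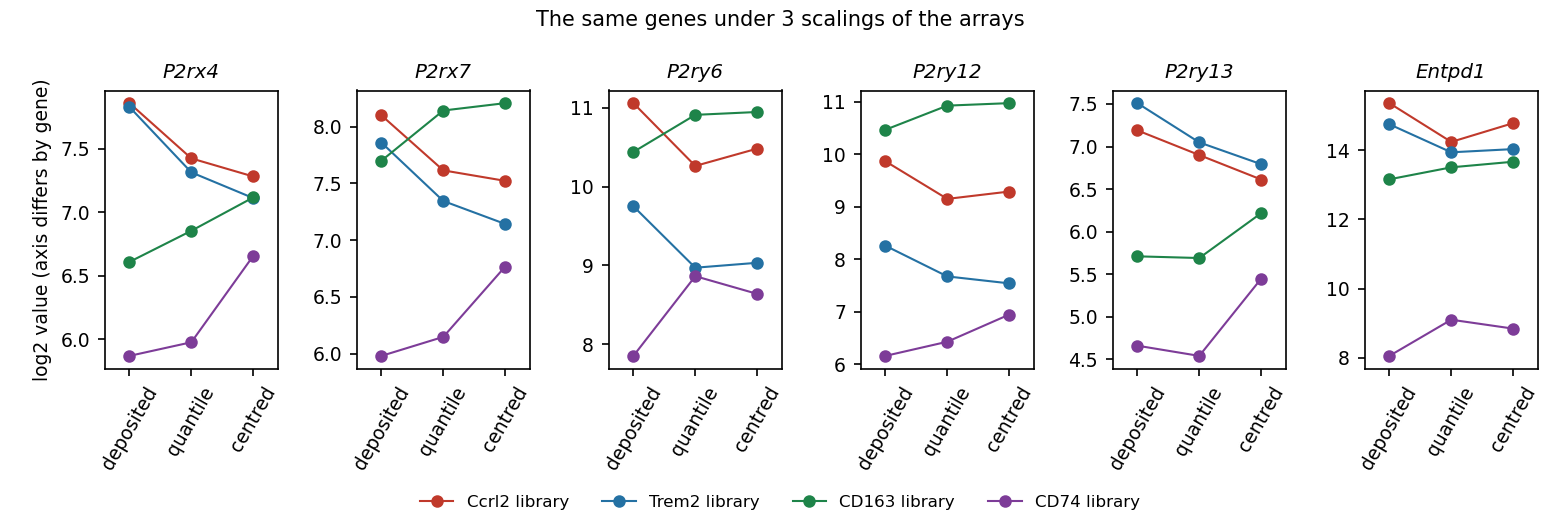
Log2 values (vertical axis, a separate range for each gene) of the 6 genes above a ceiling, as deposited, after quantile normalization and after median centring; each line is 1 library. P2ry12 stays highest in CD163 and Entpd1 in Ccrl2, whereas for P2rx7 and P2ry6 the CD163 line crosses above the Ccrl2 line.

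Between Ccrl2 and Trem2, the calls fell on a pair of P2Y receptors. P2ry6 and P2ry12 were called higher in Ccrl2 and 0 members in Trem2, of the 6 with a measured value. Over the 8773 genes tested, 5.43% were called higher in Ccrl2 and 7.92% in Trem2, with a median difference of -0.08 log2 units (Ccrl2 minus Trem2) against 0.43 over the 6 members. Both calls held under the 2 other scalings and neither reached 4-fold.

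Against CD163 the direction was mixed. P2rx4 and Entpd1 were called higher in Ccrl2 and 0 of 6 higher in CD163, where 28.1% and 5.03% of 7891 genes were. P2rx4, P2ry13 and Entpd1 were called higher in Trem2 and P2ry12 higher in CD163, where 27.6% and 6.07% of 8532 genes were. The median over all genes tested was 0.69 log2 units above CD163 in either case, and 0.94 in Ccrl2 and 0.69 in Trem2 over the 6 members. After quantile normalization 0 members remained called higher in Ccrl2 or in Trem2. Over all genes these calls fell from 2214 to 718 in Ccrl2 and from 2354 to 826 in Trem2. The number of genes tested after quantile normalization was not recorded, so counts after it, here and below, give no share. P2ry12 was then called higher in CD163 than in Ccrl2, and P2ry6 and P2ry12 higher in CD163 than in Trem2. Over all genes the calls higher in CD163 rose from 397 to 1093 and from 518 to 1331. After median centring Entpd1 alone stayed called against CD163, in Ccrl2, and P2rx7 joined P2ry6 and P2ry12 among those higher in CD163 than in Trem2.

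The CD74 library held the lowest value of each of the 6 measured members, under its ceiling for 4 of them. P2rx4, P2rx7, P2ry6, P2ry12 and Entpd1 were called higher in Ccrl2 (5 of 6, against 32.0% of 7902 genes) and in Trem2 (5 of 6, against 32.6% of 8522 genes). P2rx7, P2ry6, P2ry12 and Entpd1 were called higher in CD163 (4 of the 5 tested, against 19.3% of 5842 genes). No member was called higher in CD74, where 7.80%, 7.62% and 9.98% of genes were called higher than in Ccrl2, Trem2 and CD163. Macrophage markers were lower there too: 7 of 7 were called, with median differences of 5.55 from Ccrl2, 4.95 from Trem2 and 4.18 from CD163. The medians over the members tested were 2.87, 2.03 and 2.59, and over all genes tested 0.96, 1.01 and 0.47. Entpd1 differed by more than the macrophage marker median in the 3 comparisons as deposited (7.30, 6.69 and 5.10). After quantile normalization it was below that median for CD163 minus CD74, at 4.40 against 4.73. After either other scaling P2ry6, P2ry12 and Entpd1 stayed called in Ccrl2 and Entpd1 alone in Trem2. Over all genes, quantile normalization lowered the calls from 2529 to 915 in Ccrl2 and from 2782 to 840 in Trem2. With a ceiling at the 99th percentile 3 members were called in Ccrl2 and 3 in Trem2. T and NK cell markers were high in CD74: the summed level of 7 was 13.83, against 7.76 in Ccrl2, 10.49 in Trem2 and 8.33 in CD163. Of 5 dendritic cell markers, Flt3, Xcr1 and Clec9a were above no ceiling. Ccr7, which T cells also express, had 14.97 in CD74 against 9.94 to 11.68 elsewhere. Cd209a had 6.87 in CD74, 6.53 in Trem2 and 6.10 in Ccrl2, above the ceilings, and 4.62 in CD163, under it. The part of cell makeup in the low CD74 values was not tested.

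**Figure D3:**
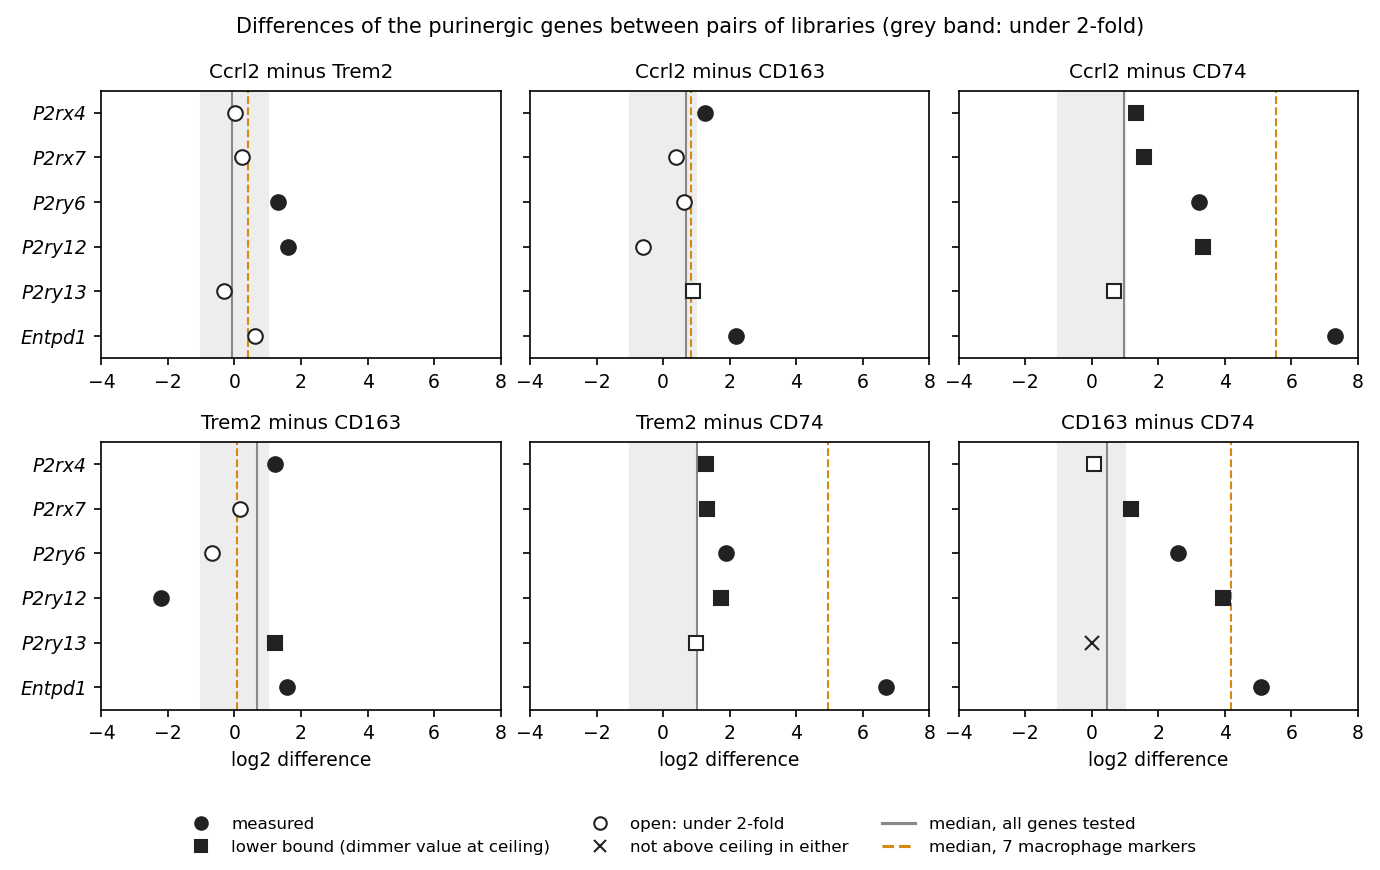
Log2 difference (horizontal axis) of the 6 measured genes (vertical axis) in each pair of libraries; squares are lower bounds, open symbols are under 2-fold, a cross is a gene not above either ceiling, the grey line is the median of all genes tested and the dashed line that of 7 macrophage markers. Entpd1 lies to the right of the dashed line in the 3 comparisons with CD74, and P2ry12 is the leftmost gene in Trem2 minus CD163, at -2.21.

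No member was called above every other library, in any of the 4, while 2.61% of 9346 genes were in Ccrl2, 3.85% in Trem2, 0.835% in CD163 and 1.78% in CD74. Below every other library were P2rx7, P2ry6, P2ry12 and Entpd1 in CD74 (4 of 6, against 10.2% of genes) and 0 members in Ccrl2, Trem2 and CD163 (0.118%, 0.128% and 3.53% of genes). Entpd1 alone kept this call in CD74 after quantile normalization, after median centring and at 4-fold. P2ry12 was called above every other library in CD163 after either scaling, or without the Ccrl2 library. Calls against every other library were not counted over all genes under the scalings, at 4-fold or with a library left out. In pairs, quantile normalization raised the all-gene calls higher in CD163. They went from 397 to 1093 against Ccrl2, from 518 to 1331 against Trem2 and from 1130 to 1254 against CD74. Without the Trem2 library, P2rx4 and Entpd1 were called highest in Ccrl2. Without CD163, P2ry6 and P2ry12 were highest in Ccrl2. Without Ccrl2, P2rx4 and Entpd1 were highest in Trem2. Without CD74, the lowest values were called for P2rx4 and Entpd1 in CD163 and for P2ry12 in Trem2.

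The genes whose 4 values ran closest to each member were found by centring every gene on its own mean and taking the largest difference over the 4 libraries, among 8704 genes. Values under a ceiling entered as deposited, so matches there include background signal. For P2ry12 the nearest was Stom, which encodes the membrane protein stomatin, within 0.17 log2 units. Stom had 10.84 in CD163, 9.91 in Ccrl2, 8.45 in Trem2 and 6.38 in CD74, where it and P2ry12 were both under the ceiling. Stom was the one gene within 0.25 log2 units of the P2ry12 pattern, and Nck1 and Frmd4b followed at 0.26 and 0.38. P2ry6 was nearest to Etv3, a transcriptional repressor, within 0.03, and had 5 genes within 0.25, Rreb1 and Sccpdh among them. Entpd1 had 0 genes within 0.25; its nearest were Cdkn1a, the cell cycle inhibitor p21, at 0.43, Cd36, a fatty acid and scavenger receptor, at 0.46, and Ccrl2, a chemerin-binding receptor and namesake of a sorted population, at 0.52. Its transcript had 16.58 in Ccrl2, 16.59 in Trem2, 14.00 in CD163 and 9.58 in CD74.

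For members with values under a ceiling in 1 or 2 libraries the matches say less, which includes P2ry12, under the ceiling in CD74. For the others, the nearest were Sav1, Banp and Fam53c for P2rx4, Pole3, Coro7 and Rsph3a for P2rx7, and Lrrfip1, Mlec and Ddost for P2ry13. Genes within 0.25 log2 units numbered 146 for P2rx4, 66 for P2rx7 and 57 for P2ry13, so the names are a few of many. The matches are resemblances over 4 arrays.

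Other purinergic receptors and the related receptors listed with them did not share 1 direction. Of 15 listed, 12 had a probe set and 5 were above a ceiling somewhere. P2ry10, a lymphocyte receptor related to the P2Y family, had 9.90 in CD74, 8.54 in Trem2, 7.19 in Ccrl2 and 4.80, under the ceiling, in CD163. The paralogue P2ry10b had 9.02, 8.50, 7.11 and 4.84 in the same order; the 2 are close relatives whose probes were not checked for shared sequence. Both had their highest value in the library where the 6 measured members had their lowest. Gpr34, a lysophosphatidylserine receptor of macrophages and microglia, had 9.67 in Ccrl2, 9.54 in Trem2, 9.03 in CD163 and 6.12, under the ceiling, in CD74. P2ry2, a receptor for ATP and UTP that lies next to P2ry6 on the chromosome, had 7.14 in Trem2 and 6.30 in Ccrl2 and was under the ceiling elsewhere. Against CD74, 1 of 5 was called higher and 2 lower in Ccrl2 (32.0% and 7.80% over all genes tested), with a median of -1.15 against 0.96 over all genes tested. After quantile normalization 1 was called higher and 3 lower, with 915 higher and 1649 lower over all genes.

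Genes for nucleotide release were called about as often as genes in general. Of 12 listed, 8 were above a ceiling somewhere. Against CD74, 3 of 8 were called higher in Ccrl2 (32.0% of all genes tested), 2 of 8 in Trem2 (32.6%) and 1 of 5 in CD163 (19.3%). In Ccrl2 1 was lower (median 1.15, against 0.96 over all genes tested). After quantile normalization 1 was called in each direction, with 915 higher and 1649 lower over all genes. Ano6, a lipid scramblase, had 9.41 in Ccrl2, 9.19 in Trem2, 7.83 in CD163 and 5.92, under the ceiling, in CD74. Abcc1, a transporter of organic anions, had 8.03, 7.43, 7.50 and 4.96 in that order. Lrrc8a, a subunit of volume-regulated anion channels, had 7.77, 7.61, 6.44 and 5.82, and like Abcc1 it was under the ceiling in CD74. Calhm2, a channel of the calcium homeostasis modulator family, was highest in Trem2 at 7.00. The ATP release channel Panx1 stayed within a narrow range, 5.58 to 6.02, and was above the ceiling in Ccrl2 and Trem2 alone.

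Among other enzymes that break down nucleotides, Entpd7, an intracellular relative of CD39, had 11.32 in Ccrl2, 9.25 in Trem2, 8.88 in CD163 and 6.45, under the ceiling, in CD74. Of 20 genes listed, 15 had a probe set and 6 were above a ceiling somewhere. In Ccrl2 against Trem2, 2 of 6 were called higher, Entpd7 and Entpd6, and 0 lower (5.43% and 7.92% over all genes tested), with a median of 0.50 against -0.08 over all genes tested. After quantile normalization 1 was called higher and 0 lower, with 330 higher and 373 lower over all genes. Against CD163, 1 of 6 was called higher in Ccrl2 (28.1% over all genes tested) and 0 of 6 in Trem2 (27.6%). Against CD74, 1 of 6 was called higher in Ccrl2 (32.0%), 1 of 6 in Trem2 (32.6%) and 1 of 3 in CD163 (19.3%). In these pairs 0 were called lower. Entpd6 had 6.90 in Ccrl2 and 5.87 in Trem2. Enpp4, a phosphodiesterase, and Ak1, an adenylate kinase, were above the ceiling in Ccrl2 and Trem2 alone, with 6.57 and 5.88 for Enpp4 and 5.86 and 6.34 for Ak1.

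Of 20 genes of adenosine handling, 15 were above a ceiling somewhere. Against CD74, 7 of 14 tested were called higher in Ccrl2 (32.0% of all genes tested), 7 of 14 in Trem2 (32.6%) and 4 of 10 in CD163 (19.3%), with 0 lower. The medians were 2.33, 2.48 and 1.55, against 0.96, 1.01 and 0.47 over all genes tested. Slc29a1, the main nucleoside carrier of the plasma membrane, had 7.89 in Ccrl2, 7.77 in Trem2, 6.17 in CD163 and 4.07 in CD74, the last 2 under the ceiling. Slc29a3, its lysosomal relative, had 11.52, 10.72, 9.89 and 7.54. Lacc1, a macrophage enzyme of purine metabolism, had 11.57, 10.30, 9.06 and 6.91. Nt5c2, a cytosolic nucleotidase, was highest in Trem2 at 9.82, against 8.57 in Ccrl2 and 6.81 in CD163. After quantile normalization 4 were called higher and 1 lower in Ccrl2 than in CD74, and likewise 4 and 1 in Trem2. Over all genes, 915 were then higher and 1649 lower in Ccrl2, and 840 and 1582 in Trem2.

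Of 12 genes listed for the NLRP3 inflammasome, to which P2X7 signals, and for related inflammasomes (Aim2, Nlrc4 and Casp4), all 12 were above a ceiling somewhere. In Ccrl2 against CD163, 5 of 11 were called higher and 0 lower, where 28.1% and 5.03% of all genes tested were (median 1.24, against 0.69 over all genes tested), although P2rx7 itself was within 2-fold. Nlrp3, the sensor, had 14.75 in Ccrl2, 12.91 in Trem2, 8.89 in CD163 and 5.26, under the ceiling, in CD74. Casp4, a caspase that senses bacterial lipopolysaccharide, had 11.02 in Ccrl2 and 9.10, 9.21 and 6.46 in Trem2, CD163 and CD74. Il1b, the cytokine the inflammasome matures, was highest in Trem2 at 18.34, with 17.11 in Ccrl2, 16.33 in CD74 and 12.69 in CD163. Neutrophil markers were also highest in Trem2, and their part in the Il1b values was not tested. Il1a, a related cytokine, had 12.03 in Ccrl2, 9.03 in Trem2, 9.09 in CD163 and 5.82, under the ceiling, in CD74. After quantile normalization 3 were called higher in Ccrl2 than in CD163 and 0 lower, with 718 higher and 1093 lower over all genes. In Trem2 against CD163, 2 of 11 were called higher and 0 lower (27.6% and 6.07% over all genes tested). The median there was 0.51, against 0.69 over all genes tested. After quantile normalization 2 were higher and 2 lower, with 826 higher and 1331 lower over all genes.

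Genes of cAMP signalling, through which P2Y12 and the adenosine receptors act, were lowest in CD163 for several members. Of 27 genes, 25 had a probe set and 19 were above a ceiling somewhere. The list also holds Gnaq, Gna11 and Gna15, G protein subunits that act on phospholipase C, and the counts include them. Against CD163, 10 of 17 were called higher in Ccrl2 and 0 lower (28.1% and 5.03% over all genes tested), and 11 of 19 higher and 1 lower in Trem2 (27.6% and 6.07%), with medians of 1.17 and 1.25 against 0.69 over all genes tested. After quantile normalization 5 and 6 were called higher and 1 lower in each. Over all genes, 718 and 826 were then higher and 1093 and 1331 lower, counts without a share because the genes tested were not recorded. Against CD74, 12 of 17 were called higher and 0 lower in Ccrl2 (32.0% and 7.80% over all genes tested). After quantile normalization 2 were higher and 2 lower, with 915 higher and 1649 lower over all genes. Pde4b, a phosphodiesterase that degrades cAMP, had 12.82 in Ccrl2, 12.87 in Trem2, 10.06 in CD74 and 8.78 in CD163. The G protein regulators Rgs1 and Rgs2 had 16.44 and 13.19 in Ccrl2, and 11.37 and 8.40 in CD163, their lowest values. Adcy7, an adenylate cyclase of blood cells, had 8.49 in Trem2, 8.17 in Ccrl2, 6.56 in CD163 and 4.55, under the ceiling, in CD74.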

How the data were processed

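The deposited values are log2 gene expression on Clariom S mouse arrays, 1 column per library. Per the labels' protocols, the authors corrected background, normalized and summarised probes by robust multichip average, and used GeneSpring; Affymetrix Expression Console is listed among the tools, per the submitters' processing notes. The sources used here do not give its settings or the build of the probes. Values ran from 2.97 to 19.93. The platform annotation gave 1 gene symbol for 19572 of 28846 probe sets and several for 0. All 7 members matched RefSeq by gene number and had 1 probe set each; elsewhere the brightest of several (55 genes) was used.

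A pair comparison took in genes above the ceiling in either library, and the comparison with every other library the 9346 genes above a ceiling somewhere. Gene counts use the 2-fold rule without p-values (Python 3.11.15, pandas 2.3.3). It was also run on simulated libraries with a common level, small noise and changes above the threshold in bright genes. Those lacked the differences in level and ceiling between the real libraries, so the run does not measure the rule's error here. Quantile normalization ran over all named genes. Median centring shifted each array to a common median over genes above all 4 ceilings. Other alternatives were ceilings at the 90th and 99th percentile or none, 1.5-fold and 4-fold thresholds, the mean over probe sets, and each library left out. Dim values as deposited were tried after seeing the data.

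The members and lists were chosen with earlier results of these data known. The rule for naming took all members, the 4 widest-ranging genes above a ceiling in each pathway list, the first 3 with a probe set in each marker list, and the 3 nearest profiles of each member. Ppbp, Panx1 and Cd209a were named after their values were seen, and Ccr7 was named outside the rule. Not every marker gene under the rule is printed. The monocyte, fibroblast, mast cell, mural and cardiomyocyte lists were measured but are not reported. A summed level is the log2 of the sum of unlogged values.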

Additional observations from a re-analysis of the deposited data

How the results depend on the processing

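Of the 20 counts of called members, 20 were within 1.5 times with the ceiling at the 90th percentile, with dim values as deposited and with the mean over probe sets. That mean could not alter a member's value, since each had 1 probe set. The number kept was 17 with no ceiling, 16 with the ceiling at the 99th percentile, 15 at 1.5-fold, 14 at 4-fold and 12 under each scaling. Most of the 20 counts were 0, and a 0 that stayed 0 enters as kept. Under each scaling the kept counts above 0 were those of Ccrl2 over Trem2 and of CD163 over CD74. Against CD163, Ccrl2 had 0 members higher after quantile normalization, 1 after median centring, 1 at the 99th percentile, 4 at 1.5-fold and 1 at 4-fold, instead of 2. Trem2 had 0, 0, 1 and, at 4-fold, 0, instead of 3. CD163 had 1 higher than Ccrl2 instead of 0 after either scaling, with no ceiling (Nt5e) and at 1.5-fold, and 2, 3, 2 and 2 higher than Trem2 instead of 1. Against CD74, Ccrl2 had 3 higher instead of 5 after either scaling, at the 99th percentile and at 4-fold, and Trem2 had 1, 1, 3 and 1. Ccrl2 had 0 higher than Trem2 at 4-fold instead of 2, and 2 above every other library at 1.5-fold instead of 0. CD163 had 1 above every other library after either scaling, with no ceiling and at 1.5-fold. CD74 had 1 below every other library after either scaling and at 4-fold instead of 4. Leaving out a library gave 2 above every other in Ccrl2 (without Trem2, or without CD163), 2 in Trem2 and 1 in CD163 (without Ccrl2), and, without CD74, 1 below every other in Trem2 and 2 in CD163. The shares over all genes were not computed under median centring, other ceilings or thresholds, or with a library left out. After quantile normalization, calls over all genes were counted for pairs of libraries only. Those counts give no share, because the numbers of genes tested then were not recorded.

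Of 42 differences between single genes in library pairs, 25 kept both their sign and their side of 2-fold after quantile normalization and 25 after median centring. The sign turned in 5 under median centring. In 2 of them, both Trem2 minus CD163, 1 of the values was called: P2rx4, from 1.22 to -0.005, and P2rx7, from 0.16 to -1.065. The other 3, and the 4 that turned under quantile normalization, were called under neither scaling. Ccrl2 minus CD163 went from 0.40 to -0.53 (quantile) and -0.69 (centring) for P2rx7 and from 0.62 to -0.65 and -0.47 for P2ry6. Trem2 minus CD163 went to -0.80 for P2rx7 (quantile), and the rest were Nt5e, under its ceilings. The cause was not tested. Signal over background limits CD74, where 2 of 7 members passed the ceiling, and P2ry13 and Nt5e, for which most differences are bounds or have none.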
